A study of Mus musculus with 6 samples.

Results

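Distal regions of open chromatin that were listed in both expanded potential stem cell (EPSC) states but not in embryonic stem cells (ESCs) numbered 9721. They made up 19.2% of the 50641 distal regions and were found among 65518 merged regions in all. When each list was cut to its widest 28965 peaks, the length of the ESC list, 2605 such regions remained, or 8.39% of distal regions. A region was made by merging peaks of the 3 states that overlapped by 1 bp or more on chromosomes 1 to 19 and X, and it was distal when its midpoint lay more than 1 kb from every start of a protein-coding transcript. The 9721 regions, called EPSC-shared distal regions here, were chosen by the presence of a D-EPSC and an L-EPSC peak, the absence of an ESC peak and the distance to a start. That pattern is therefore a description of them and not a finding.

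Open chromatin had been assayed with ATAC-seq, where Tn5 transposase cuts accessible DNA and leaves sequencing adapters. The 3 states were J1 mouse ESCs of strain 129SV and the 2 kinds of EPSC derived from them, with 2 technical replicates per state. ESCs grew in serum medium with LIF, the GSK3 inhibitor CHIR99021 and the MEK inhibitor PD0325901. D-EPSCs grew in N2B27 medium with serum replacement, LIF, CHIR99021, dimethindene maleate and minocycline hydrochloride, and L-EPSCs grew in serum replacement medium with LIF, CHIR99021, PD0325901, the Src family inhibitor A-419259, the tankyrase inhibitor XAV939, JNK inhibitor VIII and the p38 inhibitor SB203580. All 3 media therefore held LIF and CHIR99021, whereas serum was in the ESC medium and serum replacement in both EPSC media, so medium base and cell state cannot be told apart. All cells came from the J1 line, and the growth notes name embryonic fibroblast feeders or gelatin for ESCs and L-EPSCs. Per the methods, both EPSC lines were moved to culture without feeders before the assay.

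The authors deposited 1 peak list per state with the position of each peak and no height, score or value per replicate, so no comparison could be tested against the spread between replicates. Intervals given are 95% intervals for counting error only. The sequencing depth behind each list was unknown here, and the ESC list was the shortest, with 28965 peaks against 50225 in D-EPSCs and 46601 in L-EPSCs. A region without an ESC peak may therefore be closed in ESCs or open below the threshold of the peak caller, and in bulk samples openness in fewer cells and weaker openness in each cell cannot be told apart. The paper also tested read counts over peaks, with cutoffs on significance and fold change. For each EPSC state it called fewer peaks more open than in ESCs, promoters included, than there are regions described here. Which of these regions it called was not examined here. All 3 lists had peaks at the starts of the pluripotency genes Pou5f1, Sox2, Zfp42 and Sall4, while Nanog and Esrrb had start peaks in both EPSC lists but not in the ESC list. Of 10 fibroblast marker genes, 2 had a start peak in the ESC list, 6 in that of D-EPSCs and 2 in that of L-EPSCs, and Col3a1, Postn, Prrx1 and Lum had none in any list. Col1a1, Thy1 and Prrx1 had 1 EPSC-shared region each and the other 7 none, and the part of feeder cells in the results below was not tested.

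Distal open regions are often enhancers or insulators, which transcription factors occupy and which act on promoters at a distance. In pluripotent cells Pou5f1 and Sox2 bind composite sites at many enhancers, CTCF marks insulators and loop anchors, and REST keeps neuronal genes silent outside neurons. Retinoic acid receptors bind as pairs with RXR to direct repeats of a short site, named DR1, DR2 or DR5 by the bases between the copies.

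All coordinates are in mm9. The sequences below are read from that genome, 200 bases around the midpoint of an EPSC-shared distal region, with the motif match in capitals. They show REST and Oct-Sox, the motifs with the highest and the lowest ratio to distal regions of all 3 lists, and CTCF, the most frequent of the 5 motifs with the highest ratios, together with the nuclear receptor repeats and the Prdm14 word that ranked next to REST by ratio.
REST, between genes near Gm447, chr5:52802905-52803104, plus strand: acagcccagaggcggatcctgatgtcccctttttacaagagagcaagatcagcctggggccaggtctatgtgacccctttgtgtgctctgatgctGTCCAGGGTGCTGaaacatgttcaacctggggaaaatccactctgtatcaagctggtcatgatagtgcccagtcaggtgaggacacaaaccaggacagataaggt
REST, intron near Rin2, chr2:145620482-145620681, plus strand: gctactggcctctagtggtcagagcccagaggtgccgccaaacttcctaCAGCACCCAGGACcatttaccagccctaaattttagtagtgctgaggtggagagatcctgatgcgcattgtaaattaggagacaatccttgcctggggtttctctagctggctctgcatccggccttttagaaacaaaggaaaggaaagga
CTCF, intron near Accn2, chr15:99519292-99519491, plus strand: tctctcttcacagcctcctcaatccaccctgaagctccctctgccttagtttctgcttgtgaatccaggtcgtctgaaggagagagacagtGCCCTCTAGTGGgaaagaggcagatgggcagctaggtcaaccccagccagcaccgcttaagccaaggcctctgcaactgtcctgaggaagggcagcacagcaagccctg
CTCF, intron near Omg, chr11:79241333-79241532, plus strand: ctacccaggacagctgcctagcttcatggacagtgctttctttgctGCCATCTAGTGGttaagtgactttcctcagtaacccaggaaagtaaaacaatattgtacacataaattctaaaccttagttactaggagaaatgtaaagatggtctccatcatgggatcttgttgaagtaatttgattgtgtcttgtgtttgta
Oct-Sox, intron near 4930455H04Rik, chr3:116664367-116664566, plus strand: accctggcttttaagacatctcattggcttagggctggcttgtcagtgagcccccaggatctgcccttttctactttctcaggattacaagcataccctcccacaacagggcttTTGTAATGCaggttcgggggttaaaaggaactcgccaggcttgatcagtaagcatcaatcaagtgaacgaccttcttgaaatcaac
Oct-Sox, intron near Plekhm1, chr11:103268336-103268535, plus strand: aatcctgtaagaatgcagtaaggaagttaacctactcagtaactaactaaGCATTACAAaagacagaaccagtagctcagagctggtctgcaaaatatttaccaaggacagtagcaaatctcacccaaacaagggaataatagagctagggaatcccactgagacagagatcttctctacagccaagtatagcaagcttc
DR1, between genes near Pcbd1, chr10:60522079-60522278, plus strand: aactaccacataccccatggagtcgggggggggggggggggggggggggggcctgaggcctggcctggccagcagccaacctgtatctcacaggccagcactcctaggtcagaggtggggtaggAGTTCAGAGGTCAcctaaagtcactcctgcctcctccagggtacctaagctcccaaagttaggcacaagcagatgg
DR5, intron near Vps13d, chr4:144624669-144624868, plus strand: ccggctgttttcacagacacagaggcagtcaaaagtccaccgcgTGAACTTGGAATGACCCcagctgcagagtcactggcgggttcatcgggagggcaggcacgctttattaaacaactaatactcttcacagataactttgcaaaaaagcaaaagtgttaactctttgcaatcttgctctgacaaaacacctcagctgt
Prdm14, intron near Tulp2, chr7:52770944-52771143, plus strand: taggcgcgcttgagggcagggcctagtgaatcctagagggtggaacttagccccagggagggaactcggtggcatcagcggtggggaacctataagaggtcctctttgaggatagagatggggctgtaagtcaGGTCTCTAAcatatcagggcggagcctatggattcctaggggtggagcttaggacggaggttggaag
The first REST example came from a region of 658 bp whose D-EPSC peak was 476 bp and whose L-EPSC peak was 295 bp wide, and the nearest ESC peak lay 58986 bp away. The first Oct-Sox example came from a region of 1115 bp in which the D-EPSC peak covered 1115 bp and the L-EPSC peak 206 bp.

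EPSC-shared distal regions were narrower than distal regions open in all 3 states. Their median width was 375 bp (369 to 380), with the narrowest at 118 bp and the widest at 3040 bp, against 566 bp (560 to 573) for the 11342 distal regions of all 3 lists. The peaks of a single list showed this too: the D-EPSC peak had a median of 278 bp (273 to 282) in EPSC-shared regions and 408 bp (402 to 414) in regions of all 3 lists. The L-EPSC peak had medians of 265 bp (261 to 269) and 409 bp (404 to 415). Regions found in exactly 1 EPSC list were narrower still, with a median of 215 bp (212 to 217) over 23184 regions.

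Narrow regions lacked an ESC peak more often than wide ones. Among the distal regions with peaks in both EPSC lists, 68.2% lacked an ESC peak where the narrower EPSC peak was at most 200 bp. The share was 49.1% from 200 to 300 bp, 35.0% from 300 to 400 bp, 28.3% from 400 to 600 bp and 22.0% from 600 to 800 bp. Above 1200 bp it was 7.14%, or 12 of 168 regions. Widths came from the same peak calls as the rule, and the part that the shorter ESC list played in this relation was not tested.

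**Figure D1:**
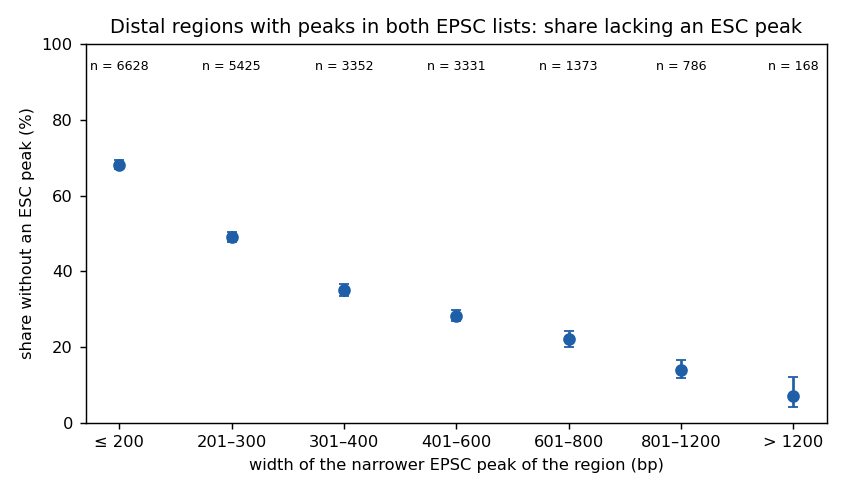
Share of distal regions with both EPSC peaks that lacked an ESC peak (vertical axis, %) by the width of the narrower EPSC peak (horizontal axis, bp), with 95% Wilson intervals and the number of regions in each class. The share falls at each step, from 68.2% in the narrowest class to 7.14% in the widest.

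The 2 EPSC lists matched each other less closely here than where ESCs were open too. The D-EPSC peak was the wider in 52.4% of EPSC-shared distal regions and the L-EPSC peak in 47.3%, and a single peak of each list made up 98.5% of the regions. Peaks of the 2 lists shared 50% or more of each other in 64.7% (63.7 to 65.6), against 77.2% (76.5 to 78.01) in distal regions of all 3 lists. The log2 widths of the 2 peaks had a Pearson r of 0.396 over the 9721 regions and of 0.585 over the 11342, as a description across regions of the same lists. At the edge of the rule, the smallest shared stretch was 1 bp, and 28 regions had peaks sharing under 10 bp.

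The distance to ESC peaks follows in part from the rule. The median gap to the nearest ESC peak was 14767 bp (14285 to 15226), and 342 of the regions (3.52%) had an ESC peak within 1000 bp. Just inside the rule the smallest gap was 2 bp and 25 regions had an ESC peak within 100 bp. At the distance threshold, the nearest kept midpoint lay 1001 bp and the nearest left out 1000 bp from a coding start, with 56 regions in the 100 bp inside and 50 in the 100 bp outside.

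By position, 4990 of the regions (51.3%) lay between protein-coding genes, 4018 (41.3%) in introns, 479 (4.93%) in coding exons and 234 (2.41%) in exons outside the coding part. Compared with distal regions of all 3 lists, they lay less often between genes, with a difference of -4.74 percentage points (-6.09 to -3.39), and more often in introns, by 3.29 points (1.963 to 4.61). Against regions of exactly 1 EPSC list the direction was opposite, with 1.84 points (0.657 to 3.02) more between genes. The median distance to the nearest coding start was 20826 bp (20082 to 21565), shorter than 22655 bp in all 3 lists, 25461.5 bp in exactly 1 EPSC list and 31372 bp in the 3209 distal regions of the ESC list only. A start more than 100 kb away was found for 12.4% of EPSC-shared regions and for 22.75% of the regions of the ESC list only.

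All chromosomes held such regions. The share of distal regions that were EPSC-shared was lowest on chromosome 8, at 16.6% (721 of 4337), and on X, at 16.9% (96 of 567), and highest on chromosome 19, at 21.9% (294 of 1342). Chromosome X held 0.576 EPSC-shared regions per Mb and chromosome 11 held 6.05.

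In base composition, EPSC-shared distal regions were close to the regions open in all states. GC content in 400 bp around the midpoint had a median of 52.0% (51.75 to 52.0), against 51.75% in all 3 lists, 48.5% in the ESC list only and 41.5% in windows taken every 100 kb of the genome. The ratio of observed to expected CpG dinucleotides had a median of 0.263 (0.259 to 0.267), against 0.267 in all 3 lists and 0.187 in the ESC list only. Windows with the composition of a CpG island, that is GC over 50% and a CpG ratio over 0.6, were less frequent than in all 3 lists, at 6.85% (6.37 to 7.37) against 11.4% (10.8 to 12.01). They were more frequent than in regions of the ESC list only, at 1.71% (1.32 to 2.22). Among the EPSC-shared regions the wider ones held more of them, from 3.91% in the narrowest of 4 classes of equal size to 11.5% in the widest.

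Words of 6 bases differed little between these classes. Over 1808 words present in at least 5% of either class, the ratio of the share in EPSC-shared regions to that in all 3 lists, weighted to the same GC content, ran from 0.762 to 1.25. The highest was AACATG, in 13.6% against 10.9%, and TGGACA followed with 23.15% against 18.95%. Among the lowest were CCGGCG, at 4.98% against 6.54%, and AACAAT and CAATAG, which share letters with the Sox word, at 15.5% against 18.95% and 11.9% against 14.6%. Against regions of the ESC list only, the words that led were rich in CpG, as with CGCGGC in 6.501% against 1.93%.

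To ask which transcription factor motifs the regions held, 32 consensus sequences were searched on both strands of the 400 bp windows without mismatch. The plain share was above that in distal regions of all 3 lists for 5 motifs and below it for 4, and the interval of the difference held 0 for the other 23. After weighting to the same GC content 4 were above and 6 below. With lists of equal length 1 was above and 5 below, with the widest 50% of the EPSC peaks 0 and 7, and where the narrower EPSC peak was over 300 bp 1 and 6. Where the narrower EPSC peak was at most 300 bp, 5 were above and 6 below. The same consensus sequences written backwards, as a control, gave 0 above and 3 below. Backwards, the CTCF, REST and Oct-Sox words lay in 0.0206%, 0.0309% and 0.134% of EPSC-shared regions. At such shares they could not differ by as much as the forward words. The Zfp281 and GC box words read the same backwards, so for them it is no control. A match is a stretch of letters and not a measured binding site.

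**Figure D2:**
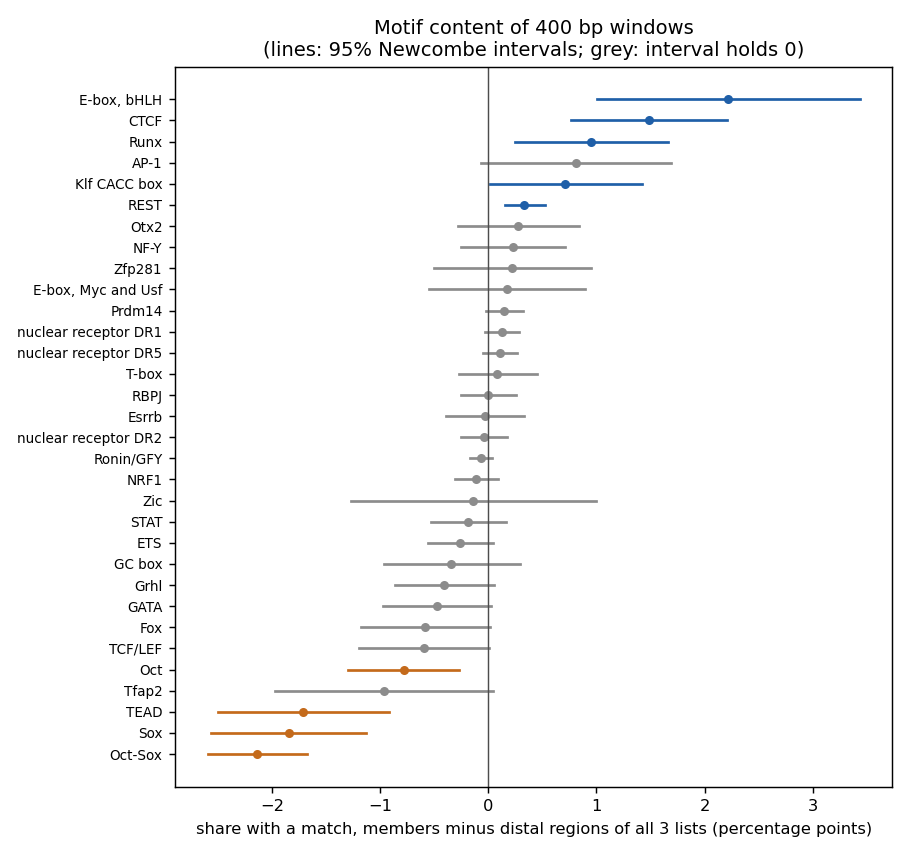
Difference in the share of windows with a match, EPSC-shared distal regions (members) minus distal regions of all 3 lists (horizontal axis, percentage points), for 32 motifs (vertical axis), with 95% Newcombe intervals. Blue marks 5 motifs above 0 and orange 4 below 0, with Oct-Sox lowest.

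The Oct-Sox word TTGTNATGC, bound by Pou5f1 and Sox2 side by side, was the motif with the lowest ratio. It lay in 1.94% (1.69 to 2.24) of EPSC-shared regions, or 189 of them, against 4.08% in all 3 lists, and the difference was -2.14 points (-2.60 to -1.68). Its central density was 2.23 times (1.62 to 3.08) that of the flanks, against 4.75 times (3.77 to 5.99) in all 3 lists. Its share was 1.79% in regions of exactly 1 EPSC list and 3.397% in those of the ESC list only. The Sox word ACAATGG was in 6.69% against 8.54% in all 3 lists, and the octamer ATGCAAAT of POU factors in 3.34% against 4.13%, although for the octamer the interval of the difference held 0 within both classes of width described below, at -0.607 points (-1.31 to 0.0658) and -0.854 points (-1.68 to 0.0556). The TEAD word AGGAATG, read by the Hippo pathway factors, was in 8.61% against 10.3%. With lists of equal length the interval of the TEAD difference held 0, at -1.33 points (-2.60 to 0.0117). For Ronin/GFY and ETS, the other motifs with low ratios, the intervals of the difference held 0. Regions with an Oct-Sox match were poorer in GC, with a median of 47.25%, and lay further from coding starts, at a median of 31940 bp against 20620 bp without the match.

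REST had the highest ratio, 2.24 after GC weighting. Its motif was in 58 EPSC-shared regions, 0.597% (0.462 to 0.771), against 0.265% in all 3 lists, 0.406% in exactly 1 EPSC list, 0.0935% in the ESC list only and 0.366% of all merged regions. The difference from all 3 lists was 0.332 points (0.156 to 0.523). With lists cut to the same number of peaks it was 0.116 points (-0.105 to 0.439), and with the widest EPSC peaks alone 0.0636 points (-0.156 to 0.453), so that both intervals held 0. The matches were concentrated at the midpoints, where the density within 50 bp was 17.1 times (7.53 to 39.0) that at 300 to 500 bp, against 4.73 times (2.12 to 10.6) in all 3 lists and 11.1 times (6.48 to 19.04) in exactly 1 EPSC list. The counts are small, with 30 central matches and 7 in the flanks, and where the narrower EPSC peak was at most 300 bp the ratio was 23.2 (8.98 to 59.9), inside the interval of 3.89 to 83.3 that 9 central and 2 flank matches gave in all 3 lists. Over 300 bp, with 1 central and 2 flank matches, the ratio was 2.00 (0.181 to 22.1), against 1.78 (0.548 to 5.77) in all 3 lists. No concentration was shown there.

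CTCF was found in 813 EPSC-shared regions or 8.36% (7.83 to 8.93), against 6.88% in all 3 lists, 4.67% in exactly 1 EPSC list, 3.18% in the ESC list only and 4.79% of all merged regions. With lists of equal length the difference from all 3 lists turned to -1.10 points (-1.93 to -0.204), and with the widest EPSC peaks to -0.819 points (-1.65 to 0.156). Central density was 27.0 times (20.5 to 35.6) that of the flanks, against 12.7 times (10.1 to 15.9) in all 3 lists and 30.4 times (23.7 to 39.0) in exactly 1 EPSC list. Where the narrower EPSC peak was at most 300 bp it was 64.0 times (42.0 to 97.5) against 34.8 times (23.4 to 51.9) in all 3 lists, and over 300 bp the direction was opposite, at 2.74 times (1.63 to 4.61) against 4.595 times (3.36 to 6.28). The regions with a CTCF match were narrower than the rest, with a median of 297 bp (288 to 312) against 385 bp (379 to 391) without one. With the EPSC-shared regions cut by width into 4 classes of equal size, the CTCF share was 13.1% in the narrowest, then 10.8% and 6.71%, and 2.88% in the widest.

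Within classes of width the CTCF share was not above that in all 3 lists. Where the narrower EPSC peak was at most 300 bp, CTCF was in 10.2% of 7182 EPSC-shared regions and 10.5% of 4871 regions of all 3 lists, a difference of -0.354 points (-1.48 to 0.747). Over 300 bp it was in 3.23% of 2539 and 4.13% of 6471, a difference of -0.896 points (-1.70 to -0.00794). REST stayed above in the narrower class, at 0.710% against 0.308%, a difference of 0.402 points (0.140 to 0.655), and over 300 bp, with 7 and 15 regions, the interval held 0. Oct-Sox stayed below in both classes, with differences of -1.67 points (-2.31 to -1.06) and -2.70 points (-3.38 to -1.961). This split by width was chosen after the data had been seen.

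**Figure D3:**
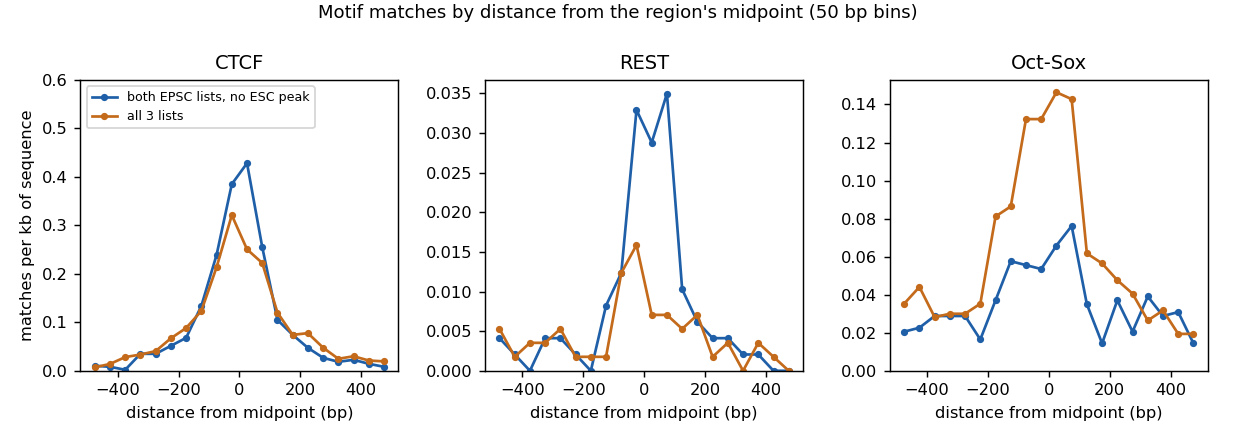
Matches per kb of sequence (vertical axis) by distance from the region's midpoint (horizontal axis, bp, in 50 bp bins) for CTCF, REST and Oct-Sox, in EPSC-shared distal regions (blue) and distal regions of all 3 lists (orange). CTCF and REST peak higher at the centre of the EPSC-shared regions, whereas Oct-Sox peaks lower.

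**Figure D4:**
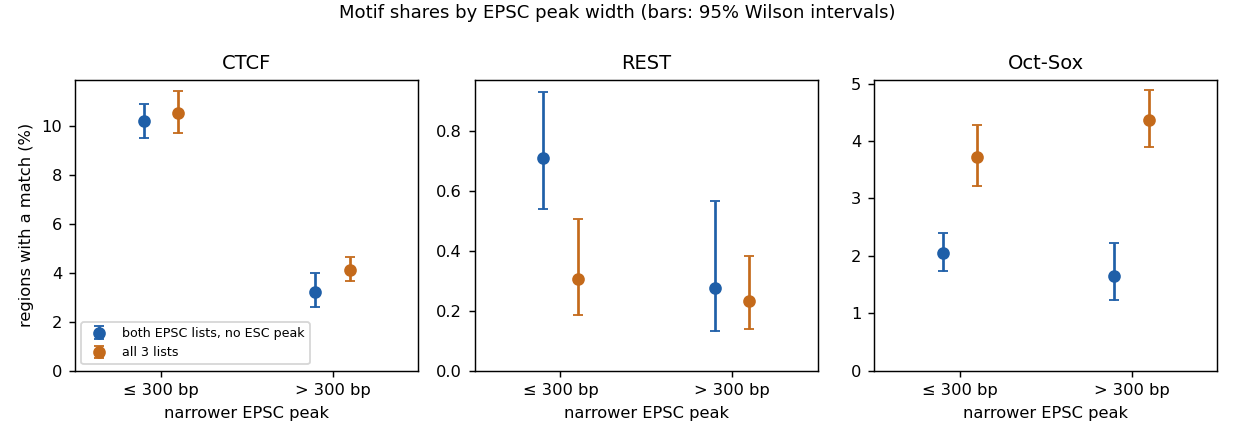
Share of regions with a CTCF, REST or Oct-Sox match (vertical axis, %) where the narrower EPSC peak was at most or over 300 bp (horizontal axis), in EPSC-shared distal regions (blue) and distal regions of all 3 lists (orange), with 95% Wilson intervals. CTCF shares are 10.2% and 10.5% in the narrower class, while Oct-Sox is lower in EPSC-shared regions in both classes.

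Other motifs were higher by small amounts. The E-box CAGCTG of bHLH factors was in 29.15% (28.3 to 30.1) against 26.9% in all 3 lists, the Runx word AACCACA in 7.80% against 6.85% and the Klf word GGGTGTGG in 7.57% against 6.86%. With the widest 50% of the EPSC peaks 0 motifs were above, so the E-box was not above there either. For Klf the interval of the GC-weighted difference held 0, and so did that over 300 bp, at 0.113 points (-1.03 to 1.34), while at most 300 bp Klf was above by 1.08 points (0.131 to 2.00). For Runx the interval held 0 in both classes of width, at 0.260 points (-0.732 to 1.23) and 1.00 points (-0.120 to 2.21). NRF1 was rare, in 44 regions (0.453%, against 0.564% in all 3 lists), and its matches lay centrally, at 11.3 times (5.87 to 21.9) the density of the flanks against 2.55 times (1.62 to 4.04) in all 3 lists. Over 300 bp the ratio was 2.67 (0.949 to 7.49), an interval that held the whole interval of 1.52 to 4.12 in all 3 lists, and at most 300 bp, with 3 flank matches in EPSC-shared regions and 5 central ones in all 3 lists, the ratios were 37.3 (11.3 to 122.8) and 2.86 (0.907 to 9.002).

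The nuclear receptor repeats did not differ beyond counting error. DR1 was in 0.381% (0.276 to 0.524) of EPSC-shared regions against 0.256% in all 3 lists, and DR5 in 0.360% (0.259 to 0.5003) against 0.256%, and both difference intervals held 0. Regions of exactly 1 EPSC list held 0.449% and 0.380%. DR2 was in 0.566% against 0.608%. Prdm14, a zinc finger regulator of naive pluripotency, had its word GGTCTCTAA in 0.442% against 0.300%, again with an interval that held 0. In all, 90.02% of EPSC-shared regions held none of the 5 motifs with the highest ratios, REST, DR1, Prdm14, DR5 and CTCF, against 92.1% in all 3 lists.

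To describe the genes around these regions, each was assigned to the gene of its nearest coding start within 100 kb, which placed 8512 of the 9721 (87.6%). They reached 5697 of 22350 protein-coding genes (25.5%), of which 629 had 3 or more and 98 had 5 or more. The nearest gene is a label by position and its regulation was not measured. The start of that gene had an ESC peak for 61.3% of the EPSC-shared regions and 61.8% of the distal regions of all 3 lists. It had peaks in both EPSC states but no ESC peak for 13.6% (12.9 to 14.3) against 12.1% (11.5 to 12.8), and for 9.16% of all protein-coding genes.

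Of 12 gene lists, FGF and ERK signalling had the highest share of EPSC-shared regions. Among the 152 distal regions assigned to its genes, 49 were EPSC-shared, or 32.2% (25.3 to 40.03). Over all distal regions within 100 kb of a coding start the share was 19.9%. At least 1 EPSC-shared region was assigned to 23 of its 29 genes, against 25.5% of all protein-coding genes. This count of genes did not set the list apart. It was 21 of 28 for naive and core pluripotency and 22 of 31 for Nodal, BMP and TGF-beta, with overlapping intervals of the shares of genes. The trophoblast list had the lowest share of genes. Dusp6, the phosphatase that switches off ERK, had 6 of 8. Etv5, an ETS factor induced by FGF signalling, had 6 of 12, Fgfr1 and Fgfr2, receptors of FGF, had 4 of 9 and 4 of 8, and Etv4 had 2 of 3. Spry2 and Spred2, feedback inhibitors, had 3 of 9 and 4 of 21. Fgfr1, Etv4, Spry2 and Spred2 were picked out after their values were seen. Several regions came from the same gene, which the intervals of the list shares do not allow for. Shares of the gene lists were not recomputed with peak lists of equal length or with the widest EPSC peaks.

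At Dusp6 on chromosome 10 the 6 regions lay between 1510 and 59212 bp from a coding start. The widest, chr10:98723874-98724835, was the nearest, with a D-EPSC peak of 962 bp and 2 L-EPSC peaks of 821 bp in all. An ESC peak lay 808 bp from it. A further one lay in a Dusp6 intron, at chr10:98728002-98728254, with peaks of 224 and 210 bp, and an ESC peak 1859 bp away. The other 4 lay between genes, with D-EPSC peaks of 142 to 666 bp and L-EPSC peaks of 214 to 525 bp. At Etv5, 4 of the 6 lay in its introns and 2 in introns of the neighbouring Dgkg. The widest of them was chr16:22517887-22518384, with peaks of 450 and 498 bp. At Fgfr2 all 4 lay in introns, and the widest, chr7:137407718-137408773, had a D-EPSC peak of 799 bp and an L-EPSC peak of 611 bp. This Fgfr2 region lay 1281 bp from a coding start and 823 bp from an ESC peak.

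Genes of naive and core pluripotency had 44 of 191 distal regions in the EPSC-shared class (23.0%, 17.6 to 29.5), an interval that held the 19.9%. Zfp281, a zinc finger factor with roles in the exit from naive pluripotency, had 6 of 18, all between genes, with D-EPSC peaks of 189 to 674 bp. Klf4, a reprogramming factor, had 4 of 8, of which the widest, at chr4:55493331-55494065, lay 50944 bp from the start with a D-EPSC peak of 735 bp and an L-EPSC peak of 233 bp. Prdm14 had 4 of 11 and, picked out after its value was seen, Sox2 4 of 12. The 200 bases around the midpoint of the widest Klf4 region held a GC box, a Zfp281 word and an E-box, shown in capitals.
Klf4, between genes, chr4:55493598-55493797, plus strand: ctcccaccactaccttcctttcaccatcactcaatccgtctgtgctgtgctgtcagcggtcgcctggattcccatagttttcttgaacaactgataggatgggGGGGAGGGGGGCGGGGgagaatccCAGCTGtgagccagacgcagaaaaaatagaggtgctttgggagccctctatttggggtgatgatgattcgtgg

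The formative and primed list had 28 of 108 (25.9%, 18.6 to 34.9), with Etv5 again and Dnmt3a at 4 of 11. In the DNA methylation list, 17 of 91 were EPSC-shared (18.7%). Dnmt3a, a de novo DNA methyltransferase, held its 4 in introns, and the widest, chr12:3870953-3872139, had peaks of 997 and 1088 bp with the nearest ESC peak 44966 bp away. Tet2, which oxidises methylcytosine, had 4 of 12. An intron of Tet1 held one of the 8 widest EPSC-shared regions, chr10:62348327-62350312, of 1986 bp, with 2 D-EPSC peaks of 1824 bp in all, an L-EPSC peak of 857 bp and GC of 57.5%.

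Genes of retinoic acid handling had 21 of 113 (18.6%, 12.49 to 26.75), close to the 19.9%. Cyp26b1 and Cyp26a1, enzymes that break down retinoic acid, had 5 of 8 and 2 of 3. No state had a peak at the Cyp26b1 start, and Cyp26a1 had a start peak in D-EPSCs alone. One Cyp26a1 region, chr19:37770332-37770540, had a D-EPSC peak of 203 bp and an L-EPSC peak of 200 bp. It held a DR5 match centred 1891 bp before the start of Cyp26a1, in capitals below.
Cyp26a1, between genes, chr19:37770332-37770540, plus strand: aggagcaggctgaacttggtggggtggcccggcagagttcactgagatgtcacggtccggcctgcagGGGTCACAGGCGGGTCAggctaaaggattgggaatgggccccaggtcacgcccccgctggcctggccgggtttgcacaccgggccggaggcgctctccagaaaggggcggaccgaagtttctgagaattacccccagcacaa
This region was picked out after its sequence had been searched, from the 35 EPSC-shared regions with a DR5 match.

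In the Nodal, BMP and TGF-beta list 32 of 145 were EPSC-shared (22.1%, 16.1 to 29.5). Smad2, which carries the Nodal signal, had 4 of 9, Smad7, an inhibitor, 3 of 21, and Lefty1, a Nodal antagonist, 2 of 4. One Lefty1 region, chr1:182863853-182864115, held an Oct-Sox match 1145 bp before the start, with a D-EPSC peak of 263 bp and an L-EPSC peak of 175 bp. It too was picked out after the search.
Lefty1, between genes, chr1:182863853-182864115, plus strand: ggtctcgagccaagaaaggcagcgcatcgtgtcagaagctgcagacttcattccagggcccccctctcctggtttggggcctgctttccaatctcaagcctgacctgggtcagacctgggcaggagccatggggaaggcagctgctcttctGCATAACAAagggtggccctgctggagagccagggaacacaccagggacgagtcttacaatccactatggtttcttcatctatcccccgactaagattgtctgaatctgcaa

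The Wnt list had 28 of 133 (21.1%, 15.0 to 28.7), led by the Wnt effectors Tcf7l1, at 4 of 15, and Tcf7l2, at 3 of 13, and by the receptor Fzd5, at 2 of 4. Lists of the other lineages ran from below to near the background. The trophoblast list was the lowest, at 8 of 92 (8.70%, 4.47 to 16.2), and the 6 of 21 genes holding any (28.6%) stood near the 25.5% of all protein-coding genes. Its most were Tead4, at 2 of 9, and Esrrb, at 2 of 15. Primitive endoderm had 19 of 84 (22.6%, 15.0 to 32.7), where Sparc, a matrix protein, had 3 of 6, and Col4a2, a basement membrane collagen, 3 of 13. Gastrulation had 16 of 97 (16.5%, 10.4 to 25.1), including 3 of 14 at Meis2 and 2 of 6 at Lhx1. Hippo and TEAD had 16 of 91 (17.6%, 11.1 to 26.7), with Tead1 at 4 of 22 and the kinase Lats2 at 2 of 5. The list of kinases and tankyrases that the L-EPSC compounds act on, to which Jun and Fos factors were added, had 12 of 71 (16.9%, 9.94 to 27.3), and Fos, a transcription factor and not a target of a compound, had 3 of 8. The intervals of 10 of the 12 lists held the 19.9%.

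**Figure D5:**
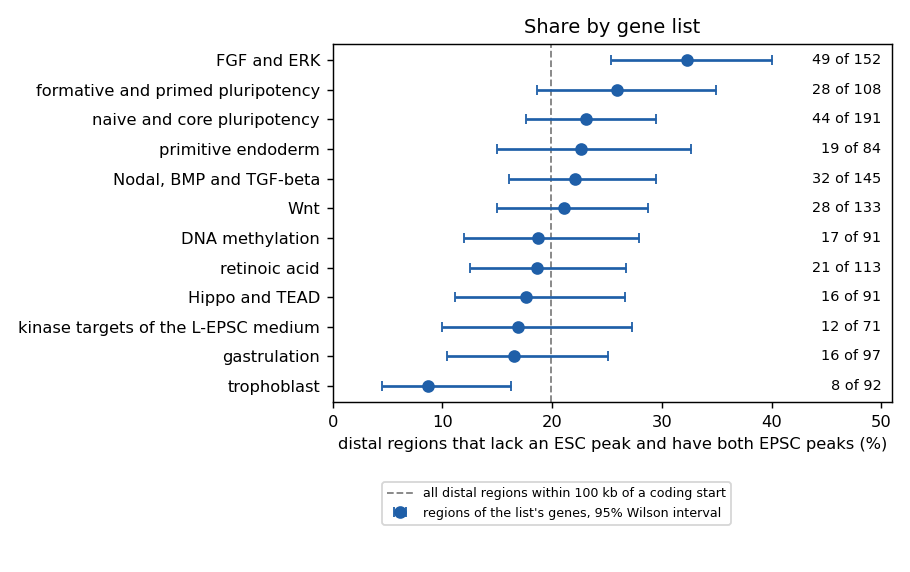
Share of the distal regions assigned to each gene list that were EPSC-shared (horizontal axis, %), with 95% Wilson intervals and counts at the right. The dashed line is the 19.9% over all distal regions within 100 kb of a coding start, with FGF and ERK above it and trophoblast below it.

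The genes with the most EPSC-shared regions were of several kinds. Gm15319 on chromosome 8 had 16 of 56, Pcdhgc5 on chromosome 18 had 12 of 22 and C130026I21Rik on chromosome 1 had 10 of 32. Words of 32 bases from the middle of a region occurred more than once in the genome for 7 of the 16 regions at Gm15319 and 3 of the 10 at C130026I21Rik, so these counts are uncertain. The authors kept reads over a minimum mapping quality, and the part of near-identical copies was not tested. Over all EPSC-shared regions this held for 101 (1.04%), against 1.43% in all 3 lists and 3.43% in the ESC list only. The Pcdhgc5 regions lay in its introns and coding exons, within the protocadherin gamma cluster, whose variable first exons overlap there.

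Repeated words were not found at the other genes named for their counts. Zmynd8, Ier2, Prex1, Jarid2 and Etl4 had 9 regions each, of 21, 22, 23, 28 and 31 distal regions. Jarid2, a cofactor of the Polycomb complex PRC2, had 6 of its 9 between genes and 3 in introns, with D-EPSC peaks of 186 to 894 bp and L-EPSC peaks of 121 to 724 bp. Prex1, a guanine nucleotide exchange factor for Rac, had a region of 1607 bp at chr2:166499761-166501367, with a D-EPSC peak of 1533 bp and an L-EPSC peak of 301 bp. Of its 9 regions, 3 held a CTCF match, and 8.36% of all EPSC-shared regions had one in their 400 bp windows. Ier2, an immediate early gene, had 5 of its 9 in introns of the neighbouring Cacna1a. Grik3, a glutamate receptor subunit, had 8 of 22. Klhdc7a and Lbx1 had 7 of 13 each, Sik1 7 of 14, Bcor and Tpd52 7 of 15 each and Arhgef10l 7 of 16. Bcor, a corepressor in a Polycomb complex, lies on X, and its widest region was 1156 bp in an intron, with a D-EPSC peak of 1050 bp and 2 L-EPSC peaks of 456 bp in all.

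The widest EPSC-shared region, chr4:146020912-146023951 near Gm13051, was 3040 bp with GC of 36.8%. The next were in a Stard13 intron, chr5:151924160-151926376, of 2217 bp, and near Klf9, chr19:23207375-23209570, of 2196 bp with D-EPSC peaks of 1723 bp in all and an L-EPSC peak of 1776 bp. Those near Fnbp1, Arid5b, Cts3 and Il17ra measured 1938, 1883, 1865 and 1839 bp. The Il17ra region had GC of 71.8% and a CpG ratio of 0.811, whereas the Stard13 region had 41.8% and 0.115.

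Most EPSC-shared regions stood alone. Joined over gaps up to the stitching distance commonly used to define super-enhancers, 7333 (75.4%) had no neighbour of the class and 2388 (24.6%) lay in 1081 runs of 2 or more. Runs of 3 or more numbered 176 and runs of 5 or more 9. The largest had 7 regions, at chr8:19974947-20004573 near Gm15319, with 4 distal regions with an ESC peak among its 12 distal regions. A run of 6 at chr15:102185573-102217477 took in Sp7, an osteoblast transcription factor, over 31.9 kb, and held no distal region with an ESC peak. A run of 6 at chr1:85277022-85302426 lay near C130026I21Rik, and 2 of the runs of 5 lay near Slc16a8 and Baiap2l2 on chromosome 15 and over Dnaic1 on chromosome 4.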

How the data were processed

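ATAC-seq peak positions of 6 samples in 3 states, 2 technical replicates each, were used. Per the methods and processing notes, the authors aligned reads to mm9 with Bowtie2 2.3.5, filtered them with SAMtools 1.10 to proper pairs over a minimum mapping quality, and used MACS to call peaks. How replicates were combined and whether duplicates, the Tn5 offset and blacklisted regions were treated are not given in the sources used here. The deposited values were the chromosome, start, end and name of each peak, with 1 list per state, so no SD or test between states could be given. The replicates were technical, and intervals cover counting error only.

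Peaks were merged with Python 3.11.15, numpy 2.4.6, pandas 2.3.3 and pysam 0.24.0 and placed on GENCODE M1 (mm9). Sequence was read from the mm9 genome. Both strands of the 400 bp centred on each midpoint were searched for motifs, and shares were compared plainly and after weighting to the same GC content in steps of 5%. Steps with at least 20 regions of the compared class were used. Shares have 95% Wilson intervals, differences Newcombe intervals, medians order-statistic intervals and density ratios intervals from the log of the counts. Regions were assigned to the nearest coding start within 100 kb. The text names the 15 genes with the most EPSC-shared regions, up to 3 of the highest genes of each list (some are not reported here), the 8 widest regions, the 5 largest runs and the 5 motifs at each end of the ratio. Merging at 1 bp, gaps, motif matching and the intervals of differences and medians were tested on simulated data. The other calculations were not. The regions, gene lists and motifs were chosen with earlier results of these data known. The examples of CTCF, Oct-Sox and the second REST sequence, the Klf4, Cyp26a1 and Lefty1 sequences, the split by width, the words compared with the ESC list and the copies of 32-base words were chosen after values were seen.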

Additional observations from a re-analysis of the deposited data

How the results depend on the processing

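No paired analysis was possible because each state has 1 peak list and no value per replicate, which also means that leaving out a replicate was not possible. Depth was unknown, so the shorter ESC list limits every statement on a missing ESC peak. Of the values recomputed under other settings 112 stayed, 38 moved and 3 reversed. Shares, medians and differences stayed when inside the reported interval. Counts have no interval and were judged by a fold limit. Under further settings added after seeing the data 23 stayed, 5 moved and 2 reversed. The cause of each change below was not tested unless the alternative itself leaves fewer regions. Requiring the D-EPSC and L-EPSC peaks to share 50% of each left 6287 regions, a share of 12.4%, a median width of 322 bp and 8 motifs above. With the 50% widest EPSC peaks 1647 regions remained (6.01%), with a median width of 698 bp, 36.4% in introns, 53.7% between genes, a median distance of 21600 bp, GC of 53.5%, a CpG ratio of 0.306, 0 motifs above and 7 below, and differences from all 3 lists of 0.0636 points (-0.156 to 0.453) for REST, -0.819 (-1.65 to 0.156) for CTCF and -2.87 for Oct-Sox. With 3 lists of 28965 peaks 2605 regions remained (8.39%), with a median width of 623 bp, 38.2% in introns, GC of 53.25%, a CpG ratio of 0.294, 1 motif above, and differences of 0.116 (-0.105 to 0.439) for REST, -1.33 (-2.60 to 0.0117) for TEAD, -1.10 (-1.93 to -0.204) for CTCF and -2.71 for Oct-Sox. Counting starts within 2.5 kb as proximal gave 52.8% between genes and a distance of 23230 bp, and starts of every gene type a distance of 13660 bp. Merging at 100 bp gave a share of 17.35%. A 200 bp window gave -1.47 for Oct-Sox and -1.12 for Sox. Consensus sequences written backwards gave 0 motifs above and 3 below, 0.0132 for REST, 0.00294 for CTCF, 0.00148 for Oct-Sox, -0.00125 for Sox and -0.430 for TEAD. The backward REST, CTCF and Oct-Sox words were too rare to differ by as much as the forward ones. Without a limit on distance the share among assigned distal regions was 19.2%. Gaps of up to 5 kb put 10.7% of the regions in runs. Leaving out regions with repeated words gave 7 motifs below. Where the narrower peak was at most 300 bp the differences were -0.354 for CTCF and -1.67 for Oct-Sox, and over 300 bp there was 1 motif above, with 0.0439 for REST, -0.896 for CTCF and -2.70 for Oct-Sox. For FGF and ERK the share was 36.5% within 50 kb and 28.8% at any distance, and for trophoblast 8.97% and 10.0%.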
